A study of Mus musculus with 6 samples.

Results

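The genes described here are 10 genes of the endoplasmic reticulum unfolded protein response, chosen by name: Hspa5, Hsp90b1, Xbp1, Atf6, Ern1, Herpud1, Dnajb9, Sdf2l1, Edem1 and Pdia4. All 10 were among the 12656 genes of the expression table, and all 10 passed the filter on low values (a log2 CPM of 0 or above in 3 libraries) among 11931 genes tested. Expression was measured by sequencing of polyadenylated RNA in 4T1, a mouse mammary carcinoma line grown in culture and labelled as triple-negative breast cancer. The 3 libraries of the control group came from 4T1 cells given the solvent DMSO, for a time that the labels do not give. The 3 libraries of the treated group came from cells exposed for 48 h to LP-184, a chemotherapeutic compound that damages DNA. The line and its genotype were the same in both groups, the sources used here give no dose of LP-184, and 4T1 is 1 cell line, so the values describe that line alone. The labels do not say whether the 3 libraries of a group came from separate cultures, so the p-values cover only library-to-library spread, possibly technical in origin.

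The endoplasmic reticulum folds secreted and membrane proteins, and the unfolded protein response raises its capacity when unfolded proteins build up. The kinase and RNase IRE1 (gene Ern1), the membrane-bound transcription factor ATF6 and the kinase PERK sense the load. IRE1 cuts the Xbp1 mRNA so that a potent transcription factor is made from it, ATF6 is cut by Golgi proteases to release its own factor, and PERK phosphorylates the initiation factor eIF2alpha, which favours translation of ATF4 and induction of CHOP. Their targets are chaperones of the reticulum and factors of endoplasmic reticulum-associated degradation, the route by which misfolded proteins are sent to the proteasome. Many target promoters carry an endoplasmic reticulum stress element, ERSE (CCAAT, any 9 bases, then CCACG), or its shorter form ERSE-II (ATTGG, any base, then CCACG). The levels given here are of mRNA by gene, so they do not show cutting of the Xbp1 mRNA, cleavage of ATF6 or activity of any sensor.

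The libraries held between 18864368 and 22471753 reads over the genes of the table. All 7 markers of mammary epithelial identity were measured, with a summed level of 4615 to 4632 CPM in DMSO and 3176 to 3200 CPM in LP-184 libraries. Of the receptors that define triple-negative disease, Erbb2 stood at 41.5 CPM in DMSO and 30.7 CPM in LP-184 libraries and Esr1 at 10.5 CPM and 0.381 CPM, and Pgr was not analysed here. Lyz2 of 5 immune markers lay between 1.28 and 1.96 CPM in DMSO libraries and at 0 reads in all 3 LP-184 libraries, and Pdgfra of 5 fibroblast markers between 6.37 and 7.62 CPM and between 8.12 and 10.3 CPM. The other markers of immune cells and fibroblasts and all 4 of endothelial cells were not analysed here.

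The response moved in both directions. With LP-184, 3 of the 10 genes rose and 7 fell (limma with Benjamini-Hochberg adjustment over all genes tested, threshold 0.05). The sensor and factor genes Atf6, Xbp1 and Ern1 fell 6.13-fold, 3.66-fold and 2.22-fold. Dnajb9 and Herpud1, a co-chaperone and a degradation factor, rose 2.58-fold and 2.36-fold, and the major chaperone gene Hspa5 rose 1.18-fold. The remaining 4 genes fell by less than 2-fold. Most of the transcriptome differed between these groups: 78.3% of genes tested were called, 38.3% higher and 40.0% lower, so a call by itself says little about these 10. At a change of 2-fold or more, 2 of the 10 were higher against 8.08% of genes tested and 3 were lower against 12.6%. The ranges of the groups were apart for each of the 10 genes, which was also so for 79.1% of genes tested. In RNA from whole cultures, fewer cells of a type and less RNA per cell cannot be told apart.

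**Figure D1:**
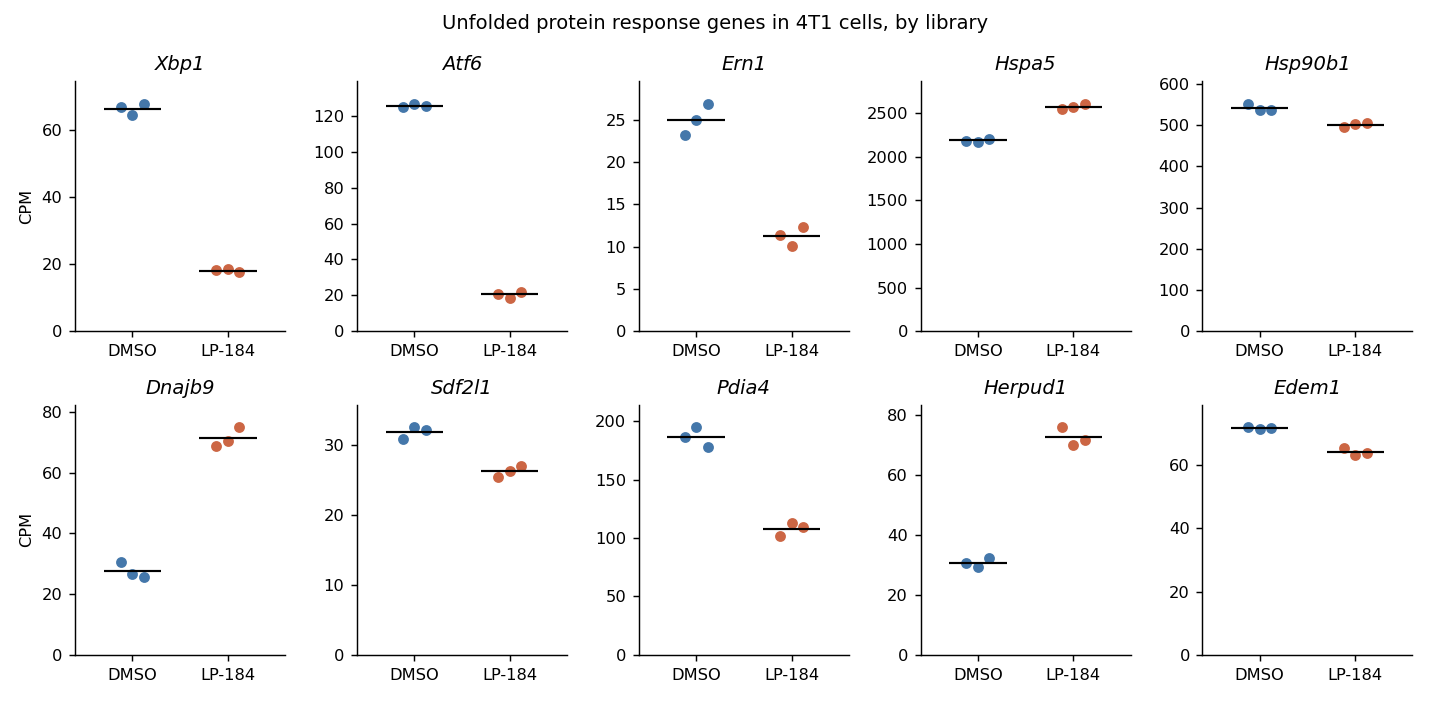
Level of each gene in CPM (vertical axes, from 0, on a scale of its own per gene) in the 3 DMSO and 3 LP-184 libraries; points are libraries and bars are group means. Xbp1, Atf6 and Ern1 are far lower with LP-184, Dnajb9 and Herpud1 are higher, and the groups overlap for none of the 10 genes.

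The sensors and the factor made by IRE1 were lower in every LP-184 library. Atf6 encodes the membrane-bound precursor of a transcription factor that induces chaperone genes. Its level was 125, 127 and 126 CPM in DMSO replicates 1 to 3 and 20.8, 18.5 and 22.1 CPM in LP-184 replicates 1 to 3. Every LP-184 library was far below every DMSO library, from 7398 reads in DMSO to 1284 reads in LP-184 libraries together. The log2 fold change was -2.62 ± 0.06 (SE, n = 3 each; limma adjusted p = 7.6e-30), at percentile 2.15 of the fold changes of all genes tested.

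Xbp1 encodes the factor whose active form is translated after IRE1 has cut the mRNA. It stood at 66.8, 64.3 and 67.7 CPM in DMSO and at 18.1, 18.5 and 17.5 CPM in LP-184 libraries. The libraries of each group lay close together, and the groups were far apart. The log2 fold change was -1.87 ± 0.06 (SE, n = 3 each; limma adjusted p = 1.3e-24). Reads of cut and uncut Xbp1 mRNA count towards the same gene, so the fall is of their sum.

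Ern1, which encodes IRE1 itself, was the least abundant of the 10 genes per exon length. Its level was 23.2, 25.0 and 26.9 CPM in DMSO and 11.3, 10.1 and 12.3 CPM in LP-184 libraries, with 1470 and 704 reads per group. The highest LP-184 library was below the lowest DMSO library. The log2 fold change was -1.15 ± 0.09 (SE, n = 3 each; limma adjusted p = 3e-13). Summed over Atf6, Xbp1 and Ern1, the level was 217 ± 2.73 CPM in DMSO libraries and 49.8 ± 2.38 CPM in LP-184 libraries (SD, n = 3 each), which is -77.1%.

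The chaperones and folding enzymes did not move as a block. Hspa5 encodes BiP, the main Hsp70 chaperone of the lumen, which also holds the sensors inactive. It was at 2182, 2167 and 2206 CPM in DMSO and at 2544, 2567 and 2605 CPM in LP-184 libraries. Each LP-184 library was above each DMSO library, by a small margin that the depth of this gene (128395 and 161370 reads per group) resolves. The log2 fold change was 0.24 ± 0.02 (SE, n = 3 each; limma adjusted p = 5e-16, 95% confidence interval 0.20 to 0.27). Hsp90b1 encodes GRP94, the Hsp90 chaperone of the lumen. It was at 552, 536 and 536 CPM in DMSO and at 495, 502 and 505 CPM in LP-184 libraries, so it was lower in all 3 with a log2 change of -0.11 ± 0.02 (SE; limma adjusted p = 1.5e-05). This call was lost with median centring of the libraries (-0.026, limma adjusted p = 0.268). In the annotation, 415 bases or 10.3% of the exon length of Hsp90b1 lie over exons of 1810014B01Rik on the other strand, which stood at 13.6 CPM in DMSO and 18.1 CPM in LP-184 libraries. The strand setting of the authors' counting was not stated in the sources, so reads of that stretch could belong to either gene.

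Hspa5 and Hsp90b1 are shown by their promoters because both hold the full ERSE. The opposite signs of their fold changes were lost only with the length trend removed, where both lay below that trend (-0.038 and -0.38). With median centring the signs stayed opposite (0.32 and -0.026), but Hsp90b1 was not called. The windows run from 250 bases before to 50 bases after the RefSeq gene start (build GRCm38.p6), 5′ to 3′ in the direction of the gene, with the ERSE matches in capitals. Hspa5 lies on the forward strand of chromosome 2 (window chr2:34771840-34772139) and Hsp90b1 on the reverse strand of chromosome 10 (window chr10:86705395-86705694).
Hspa5: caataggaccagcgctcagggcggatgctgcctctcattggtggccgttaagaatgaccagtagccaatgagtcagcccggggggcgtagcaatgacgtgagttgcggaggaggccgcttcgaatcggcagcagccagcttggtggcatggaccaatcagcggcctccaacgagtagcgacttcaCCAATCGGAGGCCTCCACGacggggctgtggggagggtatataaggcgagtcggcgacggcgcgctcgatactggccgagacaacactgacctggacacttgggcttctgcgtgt
Hsp90b1: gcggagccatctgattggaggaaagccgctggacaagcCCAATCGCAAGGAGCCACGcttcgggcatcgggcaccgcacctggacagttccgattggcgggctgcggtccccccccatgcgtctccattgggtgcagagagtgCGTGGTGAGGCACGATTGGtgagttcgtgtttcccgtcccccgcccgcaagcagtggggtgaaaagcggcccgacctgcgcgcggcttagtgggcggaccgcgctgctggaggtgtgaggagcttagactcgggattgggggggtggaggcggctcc
Hspa5 has 1 match, centred 55 bases before the start, and Hsp90b1 has 2, centred 202 and 97 bases before it, of which the nearer reads on the other strand.

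Dnajb9 encodes ERdj4, a J-domain co-chaperone that brings BiP to clients and to IRE1, and it is a textbook target of XBP1. It had the largest rise of the 10 genes: 30.7, 26.8 and 25.7 CPM in DMSO against 68.8, 70.5 and 74.8 CPM in LP-184 libraries. The lowest treated library was above 2 times the highest control library. The log2 fold change was 1.36 ± 0.06 (SE, n = 3 each; limma adjusted p = 8.8e-21). Sdf2l1, a lumenal partner of such co-chaperones, did not share that rise. It was at 30.9, 32.5 and 32.2 CPM in DMSO and at 25.4, 26.3 and 27.0 CPM in LP-184 libraries, with a log2 change of -0.28 ± 0.07 (SE; limma adjusted p = 0.00029). Dnajb9 and Sdf2l1 were at similar CPM in DMSO libraries, with a log2 difference between -0.32 and -0.01, and the difference was between 1.42 and 1.47 in LP-184 libraries. Pdia4, a protein disulfide isomerase also called ERp72, fell the most of the chaperone genes. Its level was 186, 195 and 178 CPM in DMSO and 102, 113 and 109 CPM in LP-184 libraries, a log2 fold change of -0.78 ± 0.04 (SE, n = 3 each; limma adjusted p = 7.7e-20).

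The degradation factors also parted. Herpud1 encodes a membrane protein that organises the degradation ligase complex and is strongly induced by stress of the reticulum. It was at 30.8, 29.2 and 32.2 CPM in DMSO and at 75.8, 70.1 and 71.7 CPM in LP-184 libraries. Every treated library held more than 2 times the level of any control library, with a log2 fold change of 1.24 ± 0.05 (SE, n = 3 each; limma adjusted p = 7.3e-21). Its promoter is shown because it alone among the 9 promoters examined holds the full ERSE-II. It lies on the forward strand of chromosome 8 (window chr8:94386179-94386478, RefSeq, GRCm38.p6), and the capitals mark the match, centred 46 bases before the start.
Herpud1: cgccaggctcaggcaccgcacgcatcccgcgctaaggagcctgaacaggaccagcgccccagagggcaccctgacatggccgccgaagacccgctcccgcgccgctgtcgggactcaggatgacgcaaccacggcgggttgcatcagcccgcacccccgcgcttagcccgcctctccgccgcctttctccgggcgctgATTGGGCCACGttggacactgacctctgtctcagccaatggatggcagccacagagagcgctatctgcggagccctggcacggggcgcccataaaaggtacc
Edem1, a lectin-like factor that takes misfolded glycoproteins out of folding cycles and another textbook target of XBP1, was at 71.9, 71.5 and 71.8 CPM in DMSO and at 65.5, 63.1 and 63.7 CPM in LP-184 libraries. The groups did not overlap, and the log2 fold change was -0.16 ± 0.04 (SE, n = 3 each; limma adjusted p = 0.00096). The call was lost with median centring (-0.076, limma adjusted p = 0.108).

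Per length of annotated exons, the order of the 10 genes changed with LP-184. In DMSO libraries Hspa5 led at 517 ± 4.58 CPM per kb (SD, n = 3), followed by Hsp90b1 at 134 ± 2.27 and Pdia4 at 77.6 ± 3.54. Sdf2l1 came next at 28.8 ± 0.78 CPM per kb and Xbp1 at 20.4 ± 0.54, ahead of Atf6 at 13.6 ± 0.10, Herpud1 at 13.2 ± 0.64, Edem1 at 11.1 ± 0.04, Dnajb9 at 10.9 ± 1.02 and Ern1 at 3.06 ± 0.23. The ranges of Atf6 and Herpud1 overlapped, as did those of Edem1 and Dnajb9. In LP-184 libraries no neighbours in the order overlapped. Hspa5, Hsp90b1 and Pdia4 kept the first 3 places at 608, 124 and 45.1 CPM per kb. Herpud1 and Dnajb9 followed at 31.1 and 28.0 CPM per kb, above Sdf2l1 at 23.7 and Edem1 at 9.93, and Xbp1, Atf6 and Ern1 came last at 5.56, 2.22 and 1.38. The summed level of the 10 genes was 3291 ± 15.6 CPM in DMSO and 3465 ± 41.4 CPM in LP-184 libraries (SD, n = 3 each), a difference of 5.26%. Hspa5 held 66.4% of that sum in DMSO and 74.2% in LP-184 libraries. Without Hspa5 the sum was 1107 ± 10.8 CPM and 892 ± 10.5 CPM.

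Ratios between pairs of these genes within a library follow from the fold changes above and add no separate test. The CPM of Dnajb9 was below that of Xbp1 in the 3 DMSO libraries, by 1.12 to 1.39 on the log2 scale, and above it in the 3 LP-184 libraries, by 1.92 to 2.09. The ratio of Dnajb9 to Xbp1 was thus 9.42-fold higher with LP-184. The ratio of Hspa5 to Atf6 was 7.22-fold higher. Between the degradation genes, the ratio of Herpud1 to Edem1 was 2.64-fold higher. The ratio of Hspa5 to Hsp90b1 was 1.27-fold higher, that of Hspa5 to Pdia4 2.03-fold and that of Dnajb9 to Sdf2l1 3.13-fold. A ratio within a library is not moved by scaling that library by 1 factor.

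Fold changes followed gene length across the transcriptome in these libraries, and the 10 genes span very different stretches of the genome. Atf6 covers 163 kb (chromosome 1, 170704674 to 170867771, reverse strand, GENCODE annotation of GRCm38) and Ern1 93.2 kb (chromosome 11, 106394650 to 106487852, reverse strand). The other 8 genes cover between 2.25 kb (Sdf2l1) and 30.7 kb (Edem1). Xbp1 is short, with 5.24 kb (chromosome 11, 5520659 to 5525893, forward strand), and so are Dnajb9 with 4.77 kb (chromosome 12, 44205559 to 44210326, reverse strand), Hspa5 with 5.58 kb (chromosome 2, 34771970 to 34777547, forward strand) and Herpud1 with 8.94 kb (chromosome 8, 94386438 to 94395377, forward strand). The curve fitted to log2 fold change over log10 span lay at -1.56 for a gene of the span of Atf6 and at -0.80 for that of Ern1, while it lay at 0.26 for Xbp1. With this trend removed, Atf6 was at -1.06 (limma adjusted p = 5.2e-14) and Ern1 at -0.35 (limma adjusted p = 0.0011). Xbp1 was at -2.14 (limma adjusted p = 2.4e-17), the lowest of the 10.

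Among genes of like span (within 1.25-fold), Xbp1 stood near the lower end. Of 762 such genes tested, 5 had a log2 fold change as low, or 0.656%, and the middle 90% of them lay between -0.78 and 1.56. For Atf6, 42 of 473 genes of like span were as low, or 8.88%, and for Ern1 198 of 904, or 21.9%. Pdia4 was reached by 77 of 1570 genes of like span, or 4.90%. On the upper side, Dnajb9 was reached by 53 of 733 and Herpud1 by 108 of 1133. Hspa5 sat close to the middle of its class, where 425 of 784 genes were as high. With the trend removed, Hspa5 changed direction, to -0.038 (limma adjusted p = 0.026). Hsp90b1 and Sdf2l1 were lower with the trend removed, at -0.38 and -0.48, and Dnajb9 and Herpud1 remained higher, at 1.11 and 0.93.

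**Figure D2:**
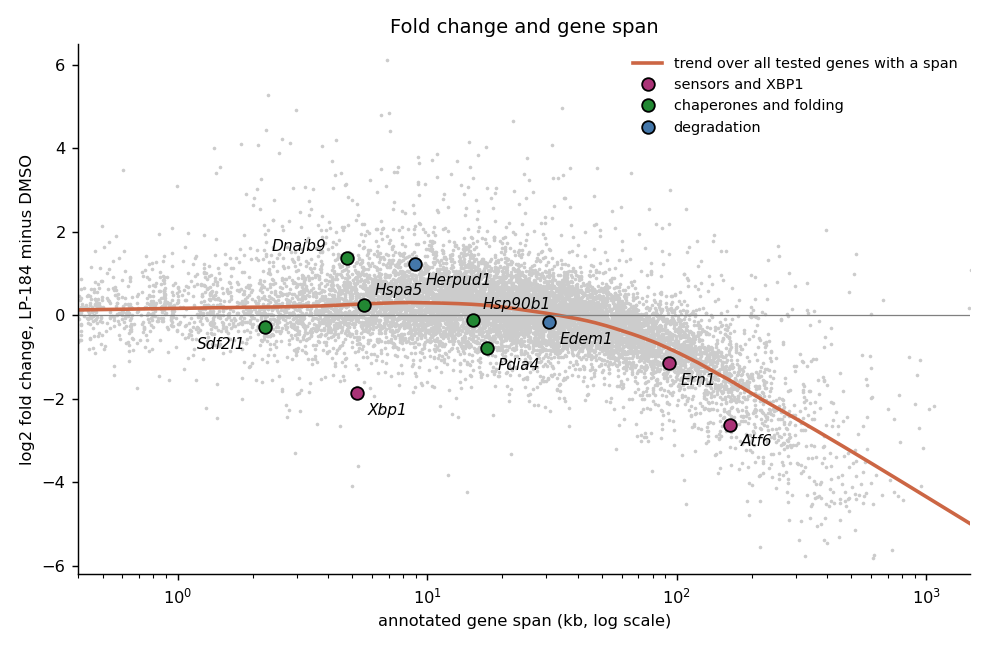
Log2 fold change (LP-184 minus DMSO, vertical axis) against annotated gene span in kb (horizontal axis, log scale) for all tested genes with a span (grey), with the fitted trend (line) and the 10 genes in colour by role. Atf6 and Ern1 lie among long genes that fell, at 163 and 93.2 kb, whereas Xbp1 lies far below the trend at 5.24 kb.

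**Figure D3:**
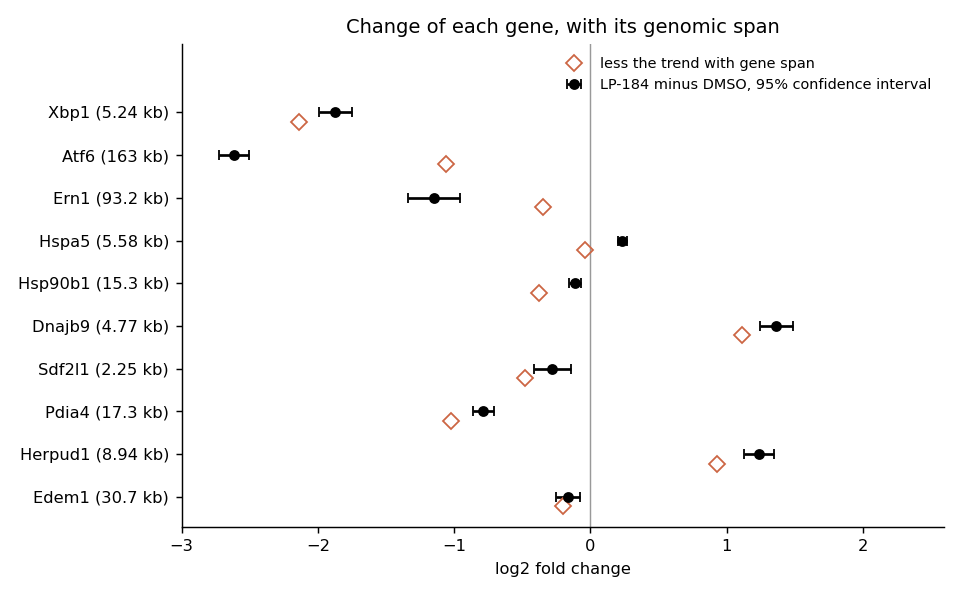
Log2 fold change of each gene with its 95% confidence interval (filled points) and the value less the trend with gene span (open diamonds), with the span in brackets. Removing the trend moves Atf6 from -2.62 to -1.06 and Xbp1 from -1.87 to -2.14, and puts Hspa5 at -0.038.

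The wider system of the reticulum was described by 7 lists of genes that hold none of the 10. Of their 120 genes 113 were tested, of which 42 rose and 52 fell, beside 38.3% and 40.0% of all genes tested. The balance of this split turned with the processing: 48 were higher and 41 lower with median centring, and 30 higher and 58 lower with the length trend removed. Their median was -0.073 on the log2 scale, against -0.006 over all genes tested. Differences between the lists were not tested, and each count below is to be read beside the same shares of all genes.

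Genes of the PERK and ATF4 arm were mostly higher: of 10 tested, 8 rose and 2 fell, and the median was 0.58 on the log2 scale. Less the length trend the median was 0.36, with 6 genes above the trend and 3 below it. Ddit3 had no matched span and is missing from these trend values, so the 2 medians cover different sets of genes. Ddit3, which encodes CHOP, stood at 9.07 ± 0.678 CPM in DMSO and 114 ± 6.34 CPM in LP-184 libraries (SD, n = 3 each), a rise. Atf3, a stress-induced transcription factor, rose as well, from 23.0 ± 1.63 to 265 ± 8.28 CPM. Ppp1r15a, a phosphatase subunit that acts on eIF2alpha, and Trib3, a pseudokinase induced by CHOP, also rose by more than 2-fold, with log2 fold changes of 2.73 and 2.07. The 2 that fell were Eif2ak3, which encodes PERK, with -0.56 ± 0.12 (SE), and Eif2s1, which encodes eIF2alpha, with -0.35 ± 0.02. So the genes of all 3 sensors, Atf6, Ern1 and Eif2ak3, were lower, and Eif2ak3 covers 60.7 kb and stood at -0.18 once the length trend was taken off.

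Of 21 lumenal chaperones and co-chaperones, 4 rose and 12 fell, beside 38.3% and 40.0% of all genes tested, with a median of -0.21. Calr, the calcium-binding lectin chaperone calreticulin, rose by 0.62 ± 0.02 (SE) in log2, with 1151 ± 8.95 CPM in DMSO and 1768 ± 40.7 CPM in LP-184 libraries (SD, n = 3 each). Sdf2, the paralogue of Sdf2l1, rose by 0.32 ± 0.04. Sil1, a nucleotide exchange factor of BiP, fell from 19.0 ± 0.955 to 1.42 ± 0.266 CPM (SD), by 3.66 ± 0.16 (SE) on the log2 scale, and Dnajc1, a membrane J-domain partner of BiP, fell by 1.92 ± 0.12. Both are long, with 233 and 197 kb, and less the trend they were at -1.56 and -0.065.

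Oxidative folding enzymes were lower in 13 of 16 cases and higher in 2, with a median of -0.30. The exceptions were Ero1a, the oxidase that recharges disulfide isomerases, with 0.33 ± 0.04 (SE), and the abundant isomerase P4hb with 0.11 ± 0.02. Pdia5 (-1.45 ± 0.11) and Erp44 (-1.01 ± 0.05) fell the most, and 15 of the 16 lay below the length trend. Pdia4 thus moved in the direction of most of this list.

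Among 24 genes of endoplasmic reticulum-associated degradation, 10 rose and 8 fell, with a median of 0.0019, near the shares over all genes. Syvn1, the ubiquitin ligase HRD1 with which HERP works, rose from 26.2 ± 2.66 to 62.4 ± 2.06 CPM (SD, n = 3 each). Its change in log2, 1.25 ± 0.06 (SE), stood beside 1.24 for Herpud1. Rnf5, another membrane ligase, rose by 0.54 ± 0.06. Edem2, the paralogue of Edem1, fell from 53.5 ± 2.36 to 26.6 ± 1.21 CPM, a log2 fold change of -1.01 ± 0.06, and the ligase gene Marchf6 fell by 0.55 ± 0.04.

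Of 23 translocation and signal peptide processing genes, 10 rose and 10 fell, with a median of 0.046, also near those shares. Sec61a1, the pore subunit of the translocon, was higher by 0.83 ± 0.03 (SE) in log2, and Srprb, a subunit of the receptor for the signal recognition particle, rose by 0.83 ± 0.03. The signal peptidase genes Spcs3 and Sec11c fell by 0.82 ± 0.03 and 0.73 ± 0.04. Among 13 genes of sensor processing and partner factors, 6 rose and 5 fell, with a median of 0.045, again near them. Atf6b, the paralogue of Atf6, was at 82.3 ± 1.80 CPM in DMSO and 164 ± 3.76 CPM in LP-184 libraries (SD), a rise of 0.99 ± 0.04 (SE) in log2, opposite to Atf6. Atf6b covers 7.93 kb, and less the length trend it was at 0.69. Nfya, a subunit of the NF-Y factor that binds the CCAAT part of the element, rose by 0.80 ± 0.05, while Creb3l2, a membrane-bound factor related to ATF6, fell by 2.01 ± 0.20 and Mbtps1, the protease that makes the first cut in ATF6, by 0.75 ± 0.03.

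Of 6 transcripts tested that IRE1 is known to cut besides Xbp1, 2 rose, 2 fell and 2 did not pass, with a median of -0.12, and 5 of the 6 lay below the length trend. Ergic3 and Sparc were higher by 0.19 ± 0.03 (SE) and 0.11 ± 0.03 on the log2 scale, and Hgsnat and Scara3 were lower, at -0.41 ± 0.07 and -0.24 ± 0.08. Bloc1s1, the best known of these transcripts, had a log2 fold change of -0.14 ± 0.28 (limma adjusted p = 0.660) at 1.96 CPM in DMSO libraries.

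**Figure D4:**
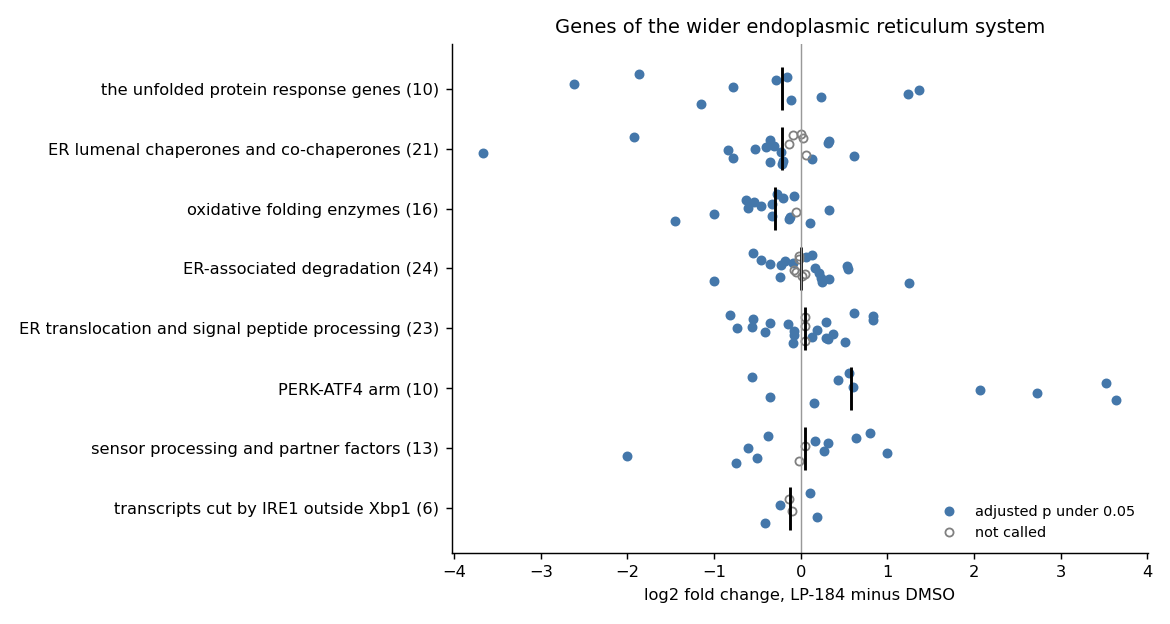
Log2 fold change (LP-184 minus DMSO, horizontal axis) of the 10 genes and of the members of 7 lists of the reticulum (number tested in brackets); points are genes, filled where the adjusted p was under 0.05, and black bars are medians. The PERK-ATF4 list has a median of 0.58 with 4 genes above 2, and the oxidative folding list has a median of -0.30.

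Promoters of 9 of the 10 genes were matched in the RefSeq table. Both strands of each window of 300 bases were searched, and ERSE and ERSE-II share the CCACG end. ERSE was found in 0.119% of 32817 promoters of that length and ERSE-II in 0.0366%. Among the 9, Hspa5 and Hsp90b1 held ERSE and Herpud1 held ERSE-II. Dnajb9, Sdf2l1, Pdia4, Edem1, Ern1 and Xbp1 held neither. RefSeq and GENCODE place the starts of some genes differently. The Dnajb9 window (chr12:44210019-44210318) lies wholly inside its GENCODE span, so bases before its GENCODE start were not searched. The ERSE of Hspa5 lies before the RefSeq start but inside the GENCODE span. None of the 9 held TGACGTGG, a core form of the unfolded protein response element, which occurs in 0.677% of promoters. Only these exact letters were searched, so sites that differ in a base were not counted. The short parts CCAAT and CCACG are common, in 37.4% and 32.8% of promoters. A match is a description of letters and not evidence of binding.

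**Figure D5:**
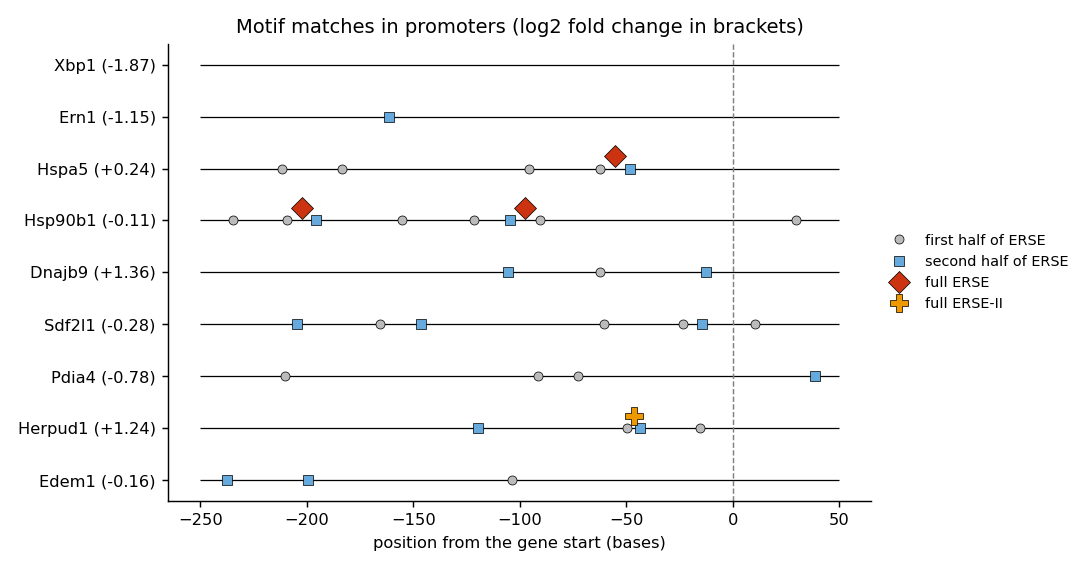
Matches to ERSE, ERSE-II and the end parts of ERSE in the promoters of 9 genes (rows, with the log2 fold change in brackets) by distance from the gene start in bases (horizontal axis). Full elements are found in Hspa5, which rose by 0.24, Hsp90b1, with -0.11, and Herpud1, which rose by 1.24.

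Of the 10 genes and the 7 lists together, 123 genes were tested, and the promoters of 97 of them entered this count. Among these 97, 9 held ERSE and 2 held ERSE-II. The other tested genes were left out of this count, so 97 is not the number with any promoter in the table. Of the 9 with ERSE, 4 were higher, 4 lower and Canx was not called. Their elements are set side by side so that the bases between the fixed parts can be seen beside the fold changes. Each is written with the CCAAT end first, whichever strand it lies on, and the capitals mark the fixed bases. The first 4 belong to genes that rose, the next 5 lines to genes that fell (Hsp90b1 has 2, the match nearer to the start first) and the last to Canx.
Syvn1: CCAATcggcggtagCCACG
Calr: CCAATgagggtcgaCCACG
Creld2: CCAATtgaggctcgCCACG
Hspa5: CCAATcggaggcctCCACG
Hsp90b1: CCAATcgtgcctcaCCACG
Hsp90b1: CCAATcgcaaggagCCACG
Ero1b: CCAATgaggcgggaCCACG
Pdia6: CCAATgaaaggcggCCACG
Dnajc3: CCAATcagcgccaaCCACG
Canx: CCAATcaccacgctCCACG
The log2 fold changes, in the order of the genes listed, were 1.25 for Syvn1, 0.62 for Calr, 0.31 for Creld2, 0.24 for Hspa5, -0.11 for Hsp90b1, -0.33 for Ero1b, -0.54 for Pdia6, -0.78 for Dnajc3 and 0.0040 for Canx. The call of Ero1b rests on a limma adjusted p of 0.045, and that of Hsp90b1 was lost with median centring. Less the length trend, Hspa5 was at -0.038 and Creld2 at 0.0097, so the rise of neither was seen on that scale. The ERSE-II of Herpud1 is shown with that of Dnajb11, a lumenal co-chaperone at 0.021 on the log2 scale (limma adjusted p = 0.574), whose match lies after the gene start.
Herpud1: ATTGGgCCACG
Dnajb11: ATTGGcCCACG

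The authors' deposited table of their own comparison gave the same sign for all 10 genes, with an adjusted p under 0.05 for each, and its log2 fold changes differed from those computed here by at most 0.008.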

How the data were processed

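The authors deposited log2 CPM, that is reads scaled to library size on a log scale with a small offset, for 12656 genes, per the file headers and values; control columns hold the DMSO samples, matched by number. Per the submitters' processing notes, fastp, STAR 2.7, featureCounts, Subread 2.0, edgeR and the builds mm10 and hg38 were used, with no roles. The annotation, filter and strand setting were not stated in the sources used here. CPM and reads were recovered by removing the offset of 0 reads (-3.34), after which 100% of values were whole reads (tolerance 1e-04). The authors also deposited log2 fold changes with p-values, raw and adjusted, used only where named.

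The tested genes, 11931, reached a log2 CPM of 0 in 3 libraries or more. Groups were compared by limma 3.58.1 (R 4.3.3) (empirical Bayes with a variance trend, two-sided, Benjamini-Hochberg). The procedure was tested on simulated counts in which few genes changed, with no link to gene length. That setting differs from these data, where most genes were called and fold changes followed length, so the test does not cover those features. Spans and exon lengths come from GENCODE for GRCm38, where 97.8% of genes matched, and the length trend is a loess curve (span 0.3). Promoters come from RefSeq, GRCm38.p6. Python 3.11.15 served for summaries.

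The members and lists were chosen with earlier results of these data known. All 10 members are named. For each list the text names, of the genes past the threshold, the 2 that rose most and the 2 that fell most (the 2 with the highest level if no gene passed). Others (Ppp1r15a, Trib3, Bloc1s1, genes named for a promoter element), and the motif and like-span comparisons, were picked once their values were known. The alternatives changed the scaling (quantile normalization, median centring), the pseudocount (1 CPM), the filter (none, or log2 CPM of 2), the variance model (without its trend, or voom on recovered reads) and the threshold (0.01). Others dropped single libraries, added a block for the replicate number, or removed the length trend.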

Additional observations from a re-analysis of the deposited data

How the results depend on the processing

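Each of the 10 genes was recomputed under 16 alternatives. Of 160 values, 157 kept their direction and their side of the threshold. The exceptions were Hspa5, which reversed to -0.038 with the length trend removed, and Hsp90b1 (-0.026) and Edem1 (-0.076), whose calls were lost with median centring, which shifts all log2 fold changes by 0.087. Over the alternatives the genes called higher numbered 2 to 3 and those called lower 5 to 8. In the wider lists 30 to 48 genes were called higher and 41 to 58 lower. Of called list genes 44.7% were higher, against 53.9% with median centring (48 higher, 41 lower) and 34.1% with the length trend removed (30 higher, 58 lower). Over all genes, 4574 higher and 4767 lower became 5195 and 4222 with median centring and 5121 and 4371 with quantile normalization, so 49.0% of calls higher became 55.2% and 54.0%. No left-out library changed the 3 higher and 7 lower calls, and no numbers paired the libraries: deviations of libraries with the same number correlated between -0.018 and -0.006. With the replicate number as a block, 3 of the 10 genes were higher and 7 lower, with 4550 and 4741 calls among all genes against 4574 and 4767. The test on recovered whole reads (limma voom) called 4595 genes higher and 4780 lower. Reads limit Ern1 the most, with 704 in LP-184 libraries together.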

Other observations

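The search for stress elements was extended to all promoters, a step chosen after the values were seen. ERSE was matched in 37 genes, of which 16 were tested, 4 higher and 8 lower with LP-184. The shares over all genes tested were 38.3% and 40.0%, and the median of the 16 was -0.055 on the log2 scale. The 9 genes with ERSE listed above are among these 16. They hold all 4 of the higher genes, Syvn1, Calr, Creld2 and Hspa5, so no gene added by the wider search was called higher. Of 10 tested genes with ERSE-II, 7 were higher and 2 lower, with a median of 0.26. The 7 higher genes included Herpud1 at 1.24, Nucb1 at 0.80, Lrif1 at 0.34, Gm46430 at 0.31, Krtcap2 at 0.22 and Lgalsl at 0.17. The other was Rnf151 at 2.17 ± 0.38 (SE), with a mean of -1.20 log2 CPM in DMSO libraries, below the filter minimum of 0. Rnf151 could not have passed the filter without LP-184 libraries, so its place among the higher genes says little. The lower genes were Rbm39 at -0.65 and Rcl1 at -0.20, and Dnajb11 was not called. Of 91 tested genes with TGACGTGG, 37 were higher and 35 lower. Among the 37, Chrnb2 had a mean of -1.58 log2 CPM in DMSO libraries, so the same limit holds for it. These sets are small and were not tested as sets.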
